A study of Heterocephalus glaber with 6 samples.

Results

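The epidermal response of naked mole-rats to a single application of the carcinogen DMBA was described from 4 of the 8 count libraries of the study. They were chosen by their labels alone and comprise 2 libraries of DMBA-treated skin and the 2 acetone libraries that the labels pair with them, from 3 of the 6 GEO samples. All animals were wild type Heterocephalus glaber aged 6 to 7 months. In the DMBA group 100 µl of DMBA at 1 mg/ml was put on the back skin once and the skin was harvested on day 10. The controls received acetone, the solvent of DMBA, with a harvest day not given in the sources used here. The other 4 libraries, used here for context, come from skin given DMBA once and then TPA at 0.1 mg/ml 2 times per week until harvest on day 46, and from the acetone controls of that regimen. In every group the epidermis was freed from the dermis with dispase before RNA was isolated. The 2 control columns of each regimen belong to 1 GEO sample, and the labels do not say whether libraries came from separate animals or from pools, so that p-values reflect the spread among these libraries alone, and that spread may be technical.

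DMBA, short for dimethylbenzanthracene, is a polycyclic aromatic hydrocarbon. In mouse skin it binds the aryl hydrocarbon receptor and is turned by cytochrome P450 enzymes into epoxides that form adducts with DNA, and it serves as the initiator in the classical model of chemically induced skin tumours, where TPA, a phorbol ester that activates protein kinase C, serves as the promoter. The epidermis consists mainly of keratinocytes, which divide in the basal layer and differentiate towards the surface, with smaller numbers of Langerhans cells, melanocytes and T cells. The naked mole-rat is a long-lived subterranean rodent known for the rarity of its tumours.

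The tables list 33281 IDs, referred to as loci. Ensembl-style IDs make up 16308 of them and numbered loci of a transcript assembly 16973. Neither kind comes with a symbol, and none was found in the reference table used here. Target genes of the aryl hydrocarbon receptor or of p53 could therefore not be looked up, and the labelled tissue could not be checked against keratinocyte markers. The libraries held 22852358 and 27486387 counts in the controls and 30080934 and 35238753 after DMBA, so both DMBA libraries were deeper. Loci with at least 1 count numbered 19564 and 19525 in the controls and 19633 and 19859 after DMBA. The 10 loci most abundant on average over the 8 libraries held 21.0% and 21.9% of the counts in the controls and 29.8% and 25.8% after DMBA. For these shares and for the total counts the exact two-sided permutation test gave p = 0.333, the smallest that 2 against 2 libraries allow. Their part in the results below was not tested.

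Enough counts for a test were present at 18422 loci. Called means an adjusted p below 0.05 from edgeR, with a quasi-likelihood model of all 8 libraries. Few loci were called by this measure, and the number of calls is not the number of loci that DMBA changed. Of the tested loci 154 (0.836%) were called higher and 50 (0.271%) lower than in the controls, 1.11% in all. In such bulk tissue fewer cells of a type and less RNA per cell cannot be told apart. Over all tested loci the median log2 fold change was 0.00, with quartiles of -0.37 and 0.34. The scaling places this centre near 0, so it cannot show whether the typical locus changed. With total counts as the only scaling the median was -0.18. The called loci that rose had a median log2 fold change of 1.48 and quartiles of 1.14 and 2.42, and those that fell had a median of -1.58 and quartiles of -1.99 and -1.22. These medians and quartiles were the same with loci of no counts in 1 group set at their bound. An unadjusted p below 0.05 was reached by 3303 loci, or 17.9% of those tested, so that 6.18% of these passed the adjustment.

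**Figure D1:**
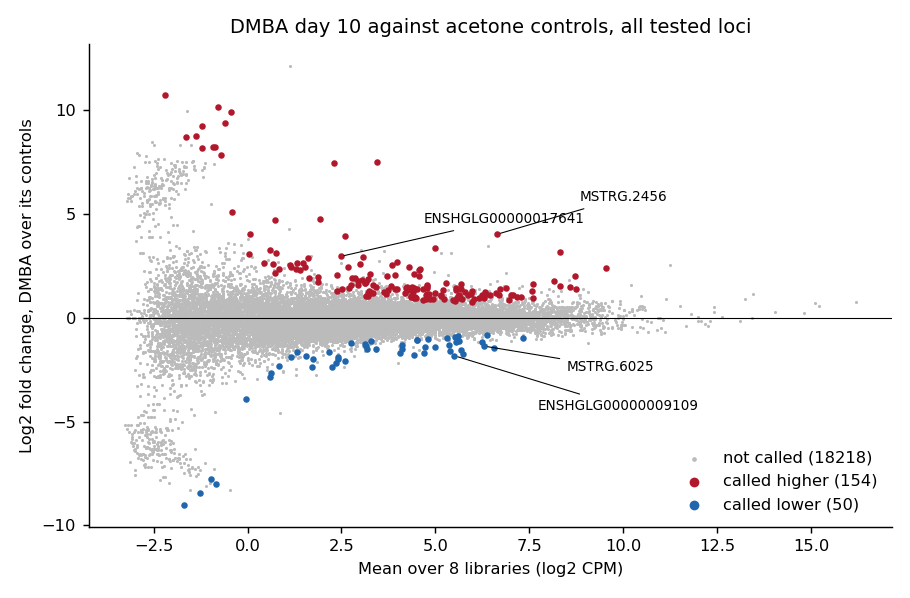
Each point is 1 of 18422 tested loci, with its mean abundance over the 8 libraries (log2 CPM) on the horizontal axis and its log2 fold change after DMBA on the vertical axis; red and blue points are the 154 and 50 loci called higher and lower. The cloud centres on 0.00, near which the scaling places it, and the widest folds, called or not, lie at low abundance.

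The smallest p was that of MSTRG.2456, an assembled locus. It stood at 40.5 and 46.6 CPM (counts scaled to a common library size) in the controls and at 861.7 and 557.5 CPM after DMBA. The lower DMBA library was thus far above the higher control, although the DMBA libraries differed more from each other than the controls did. The means were 43.6 ± 4.28 and 709.6 ± 215 CPM (SD, n = 2 each), a 16.3-fold rise with a log2 fold change of 4.03 (standard error 0.286, edgeR adjusted p = 0.00189). Against the DMBA/TPA controls, which stood at 27.3 and 21.9 CPM, the log2 fold change was larger, at 4.85 (edgeR adjusted p = 0.000248).

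ENSHGLG00000017641, an Ensembl-format locus of low abundance, had the next smallest p among the loci that rose. Its level was 2.22 and 1.63 CPM in the controls and 14.6 and 15.3 CPM after DMBA, from 58 and 47 counts and from 413 and 536 counts. The DMBA libraries were close to each other, and both lay far above both controls. The means of 1.92 ± 0.420 and 14.96 ± 0.477 CPM (SD, n = 2 each) gave a 7.78-fold rise, with a log2 fold change of 2.96 (standard error 0.252, edgeR adjusted p = 0.00418). The acetone libraries of the other regimen were close to these controls, at 2.75 and 2.40 CPM.

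Among the loci that fell, ENSHGLG00000009109 had the smallest p. It was at 62.9 and 83.2 CPM in the controls and at 21.4 and 19.8 CPM after DMBA, without overlap. The fall was 3.54-fold, from 73.1 ± 14.4 to 20.6 ± 1.14 CPM (SD, n = 2 each), and the log2 fold change was -1.83 (standard error 0.184, edgeR adjusted p = 0.00642). The other 2 acetone libraries, at 65.7 and 62.9 CPM, were also well above both DMBA libraries.

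MSTRG.6025, the next by p among the loci that fell, went from 110.8 and 122.1 CPM in the controls to 49.9 and 40.7 CPM after DMBA. Again the groups did not overlap, and the acetone libraries of the other regimen, at 103.9 and 90.9 CPM, were on the side of the controls. The fall was 2.57-fold, from 116.5 ± 7.98 to 45.3 ± 6.5 CPM (SD, n = 2 each), with a log2 fold change of -1.36 (standard error 0.166, edgeR adjusted p = 0.0108). These 4 loci were the first 2 by p in each direction among called loci without overlap between the groups and with an average level from 2 log2 CPM upward, of which there were 121 higher and 37 lower. All 4 lost their call when both control columns were added up as 1 library (edgeR adjusted p between 0.118 and 0.231), and ENSHGLG00000009109 and MSTRG.6025 also when only the 4 DMBA and control libraries entered the fit (edgeR adjusted p = 0.0626 and 0.117). The MSTRG.6025 call was lost as well without the first DMBA control library (edgeR adjusted p = 0.0845) and without the first DMBA/TPA library (edgeR adjusted p = 0.0513).

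**Figure D2:**
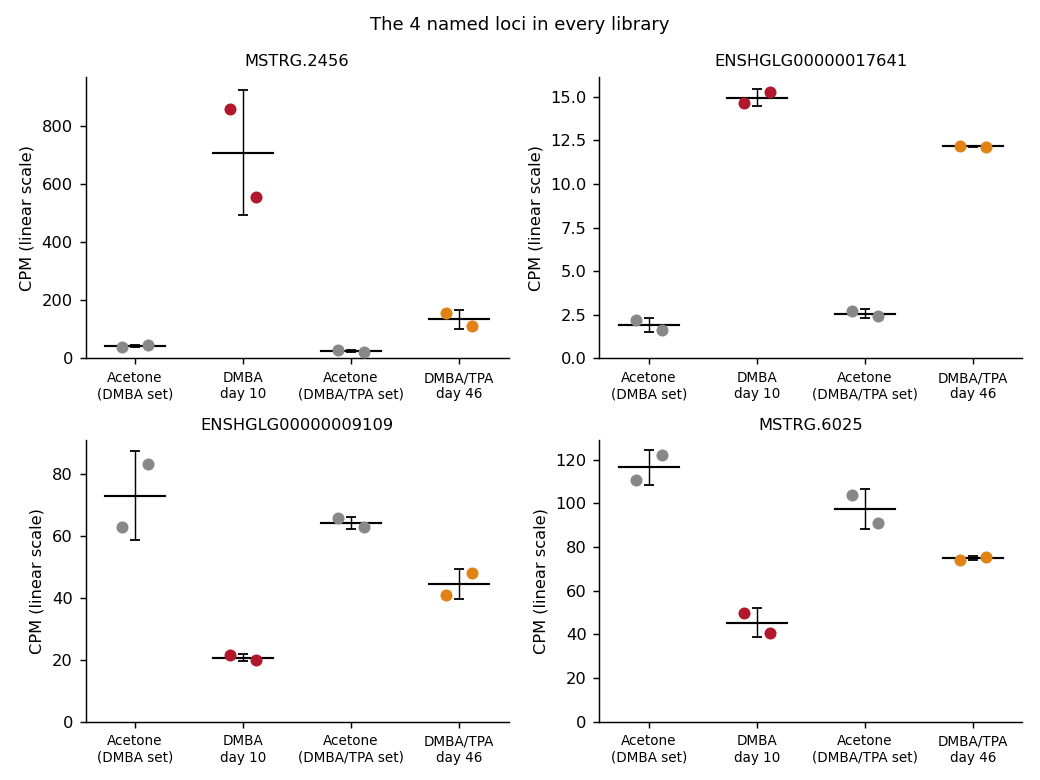
Points are single libraries, 2 per group, with the level in CPM on a linear vertical axis that starts at 0 in each panel; horizontal lines are group means and error bars the SD. After DMBA on day 10 MSTRG.2456 and ENSHGLG00000017641 lie above all 4 acetone libraries and ENSHGLG00000009109 and MSTRG.6025 under them, and the DMBA/TPA libraries lie between DMBA and acetone for all 4 loci.

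Loci of every abundance class were called, though at unequal rates. Under 0 log2 CPM 17 of 3832 tested loci were called, or 0.444%, and between 0 and 3 log2 CPM 49 of 5431, or 0.902%. The rate was 1.56% between 3 and 6 log2 CPM, with 81 loci higher and 25 lower, and 1.36% from 6 log2 CPM upward, with 27 higher and 5 lower. The median change of called loci, sign ignored, was 2.31 log2 units between 0 and 3 log2 CPM, 1.35 between 3 and 6 and 1.19 above. In the lowest class 15 of the 17 called loci had no counts in 1 group, so that their folds are known only as lower bounds. The 1000 loci most abundant on average over the DMBA and control libraries held 64.2% of the control counts and 67.6% of the DMBA counts on average. Of them 14 were called higher and 1 lower, or 1.5%, beside 1.11% of all tested loci. A ranking that includes the DMBA libraries favours loci that rose.

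By size, 115 of the 1862 tested loci that changed between 2-fold and 4-fold were called, or 6.18%. Between 4-fold and 8-fold it was 35 of 403, or 8.68%, and past 8-fold 29 of 511, or 5.68%. Up to 2-fold it was 25 of 15646, or 0.16%. A change past 2-fold was itself common, at 2776 tested loci, and 6.45% of these were called. Calls were about as frequent in both ID formats. Of 4465 tested Ensembl-format loci 32 were called higher and 11 lower, or 0.963%, and of 13957 assembled loci 122 higher and 39 lower, or 1.15%. Of the 43 called Ensembl-format loci 12 had no counts in 1 group, and of the 4465 tested ones 278 had none in 1 group or both.

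Tested loci with no counts in the controls, after DMBA or in both numbered 445, and 15 of them were called. In 11 of the 15 both controls were at 0 and both DMBA libraries were counted, at 0.942 to 9.17 CPM. Against a floor of 3 counts per library these rises were at least 9.0-fold to at least 66.6-fold. Of these 11 loci 9 had Ensembl-format IDs, as did 278 of the 445. No acetone library held a count at 32 tested loci. Of the 11 loci 4 were among these, with both DMBA/TPA controls at 0 as well. The other 7 had counts in a DMBA/TPA control, up to 1.74 CPM, and in 9 of the 11 both DMBA libraries exceeded all 4 acetone libraries.

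One of the 11, the locus with the highest bound, was counted in the DMBA libraries alone, at 9.17 and 5.39 CPM, and at 0 in the other 6 libraries. In the opposite direction 4 called loci were at 0 in both DMBA libraries and between 0.762 and 2.94 CPM in the controls, at least 9.56-fold to at least 22.9-fold lower. All 4 were counted in both DMBA/TPA controls, and 1 of them was at 0 in both DMBA/TPA libraries too. The floors cover counting error only, since reads are not independent molecules.

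Among called loci with counts in both groups, 13 rose by more than 8-fold and 1 fell by more than 8-fold. Such folds were mostly not called. Of all tested loci, those without counts in a group included, 511 changed by more than 8-fold and 5.68% of these were called. In all 13 both DMBA libraries lay above the other 6 libraries, beside 4.17% of all tested loci. The choice of large called rises favours this. Assembled IDs were held by 12 of the 13 and by 75.8% of all tested loci. The range was wide, from loci at 2.69 CPM in a DMBA library to one at 1227.4 CPM. A pair of assembled loci led this group with log2 fold changes of 7.495 and 7.47. The first had 3.83 and 1.25 CPM in the controls and 620.8 and 288.4 CPM after DMBA. The second had 1.26 and 1.00 CPM in the controls and 265.4 and 137.7 CPM after DMBA. Both were higher in the first DMBA library than in the second, and after DMBA/TPA on day 46 neither was raised, at 4.88 and 1.94 CPM and at 1.85 and 0.901 CPM. For both the difference between the DMBA/TPA and the DMBA effect was called, at -8.0 and -8.20 on the log2 scale (edgeR adjusted p = 0.00654 and 0.00671). Of the 13 loci 6 were called higher after DMBA/TPA and 1 lower, and the difference between the effects was called for 6.

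**Figure D3:**
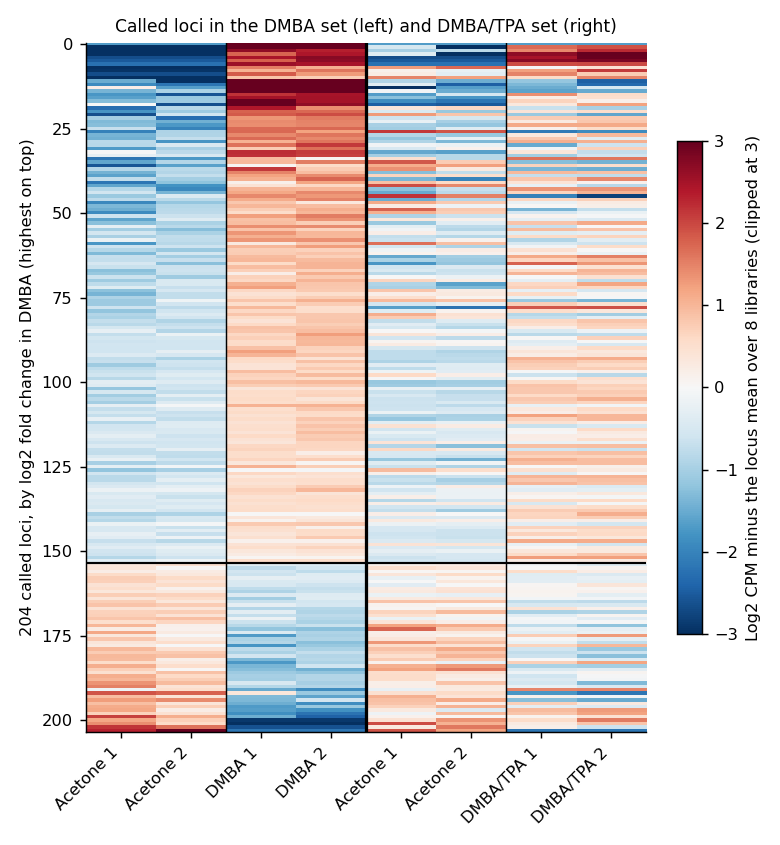
Rows are the 204 called loci ordered by their log2 fold change after DMBA, columns are the 8 libraries, and colour is the log2 CPM of a locus minus its mean over the 8 libraries, clipped at 3 in either direction. The DMBA columns stand apart from their own controls in every row, as the choice of rows requires, while the DMBA/TPA controls are as high as DMBA in scattered rows of the upper block.

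The libraries of a pair were close to each other at the called loci. The absolute log2 difference between the DMBA libraries had a median of 0.20 at the called loci and of 0.40 over all tested loci, and that between their controls 0.29 and 0.32. The test favours loci with close pairs by design. The interval between the nearest DMBA and control libraries had a median of 1.2 log2 units at the called loci, all of which had groups that did not overlap. Over all tested loci 22.7% had both DMBA libraries above both controls and 21.8% had both below, with a median interval of 0.25 log2 units. Of the 204 called loci 128 had the first control farther from DMBA than the second. These were 91 of the 154 that rose and 37 of the 50 that fell. Over all tested loci, whatever their direction, the first control was below the second in 9002 of 18422. The share of all tested loci with the first control farther from DMBA was not worked out, so whether the called loci stand out in this is not known. Of the fits with 1 library left out, the one without the first control called the fewest loci. Fewer than 204 were also called without the second control and without any 1 DMBA/TPA or DMBA/TPA control library. More were called without either DMBA library.

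The acetone libraries of the DMBA/TPA regimen entered the comparison only through the choice of tested loci, the scaling and the estimate of spread. They give a second set of acetone-treated epidermis. Set against them the DMBA libraries, which both comparisons share, gave the opposite direction at 13 of the 204 loci, all of them rises, and at 28.1% of all tested loci. Sharing the DMBA libraries favours the same direction. Of the 154 loci 102 were called higher against the second set as well, 39 were higher without a call and 13 were lower, 1 of them with a call. Of the 50 loci 36 were called lower and 14 were lower without a call. Over all tested loci 3.91% were called higher and 1.76% lower against the second set.

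Both DMBA libraries exceeded all 4 acetone libraries at 129 of the 154 loci that rose, and at 13.7% of all tested loci. They were below all 4 at 49 of the 50 that fell, and at 14% of all tested loci. These shares of the called loci are partly fixed by the choice of loci, since 2 of the 4 acetone libraries made the calls.

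At the other 25 loci that rose, at least 1 DMBA library did not exceed all 4 acetone libraries. Their median mean CPM was 7.87 in the DMBA controls, 22.9 after DMBA, 32.1 in the DMBA/TPA controls and 10.3 after DMBA/TPA. Higher DMBA/TPA than DMBA controls at these loci follow from how they were chosen. Of the 25 loci 16 were called lower after DMBA/TPA than in its controls, 2 higher and 7 not at all, with a median log2 fold change of -1.07. The corresponding medians at the 129 loci were 11.8 CPM in the DMBA controls, 32.7 after DMBA, 13.6 in the DMBA/TPA controls and 22.3 after DMBA/TPA. Of these 85 were called higher after DMBA/TPA, 5 lower and 39 not at all, with a median log2 fold change of 1.14. The 2 groups were separated after their values had been seen and by the level of the DMBA/TPA controls, which also enter the DMBA/TPA fold change, so that their opposite medians are built in by the choice and are given as a description.

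**Figure D4:**
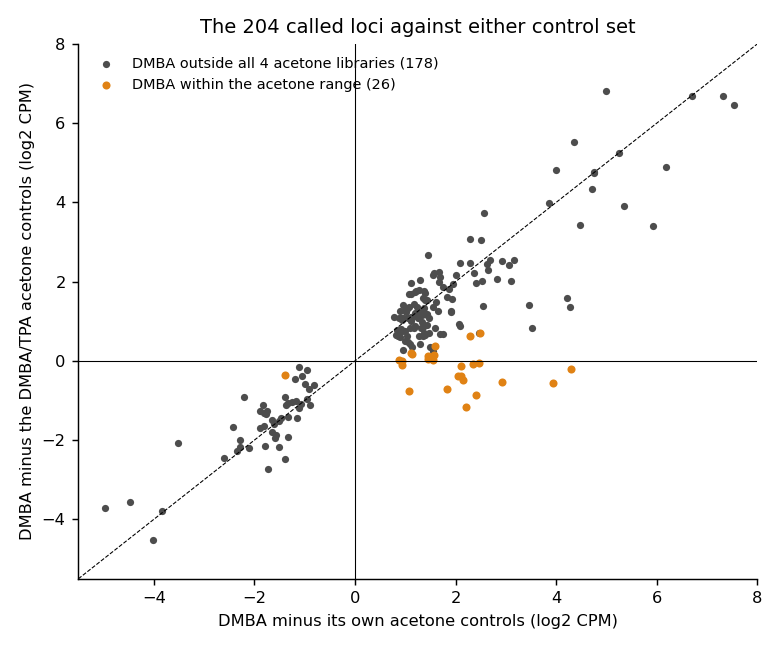
Each point is 1 of the 204 called loci, with the difference of mean log2 CPM between DMBA and its own controls on the horizontal axis and between DMBA and the DMBA/TPA controls on the vertical axis; the dashed line marks equal differences. Of the loci, 178 have both DMBA libraries outside the range of all 4 acetone libraries, and 26 (orange) do not, 25 of them among those that rose.

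The levels of the called loci were also summed in each library. The loci were chosen by the DMBA and control libraries, so the gap between the sums of these groups follows from the choice. The 154 loci that rose added up to 3933 and 5198 CPM in the controls and to 14624 and 15408 CPM after DMBA. They came to 9175 and 7837 CPM in the DMBA/TPA controls and to 7955 and 8162 CPM after DMBA/TPA, so that the DMBA/TPA libraries overlapped their own controls in this sum. A few loci weigh heavily in these sums. The 5 most abundant of each library, which need not be the same loci, held 35.2% and 39.5% of the DMBA sums. In the DMBA/TPA controls the 5 most abundant of each library held 45.3% and 42.9%. The 50 loci that fell added up to 2076 and 1744 CPM in the controls and to 788 and 793 CPM after DMBA. For them the DMBA/TPA controls, at 1794 and 1818 CPM, resembled the DMBA controls, and the DMBA/TPA libraries, at 1179 and 1203 CPM, lay between.

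How the day 10 response compared with day 46 was read from the DMBA/TPA comparison, which has its own controls and shares only the fit. Over all tested loci 14.5% were called higher and 12% lower in it. Among the 154 rises of day 10 there were 87 called higher, 21 called lower and 46 not called in DMBA/TPA, and among the 50 falls 17 called lower, 3 called higher and 30 not called. Both DMBA libraries were above the other 6 libraries, DMBA/TPA included, at 73 of the 154 loci and at 4.17% of all tested loci. They were below the other 6 at 35 of the 50 loci and at 3.77% of all tested loci. The loci were chosen by their day 10 effect, which raises these shares.

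The difference between the effects, which was called for 5.12% of all tested loci, was called for 53 of the 154 loci that rose, in 50 of them with the smaller value in DMBA/TPA, and for 16 of the 50 that fell, in all 16 with the higher value in DMBA/TPA. The choice of loci by the DMBA effect favours these directions. MSTRG.2456, at 157.7 and 110.5 CPM after DMBA/TPA, was called higher than its controls there too, but its log2 fold change was smaller by 1.58 (edgeR adjusted p = 0.0401). ENSHGLG00000017641 stood at 12.2 CPM in both DMBA/TPA libraries, with a log2 fold change of 2.24 (standard error 0.244, edgeR adjusted p = 0.000889), and for it a difference from DMBA was not detectable (-0.72 ± 0.338 log2 units, the error being the standard error, with an edgeR adjusted p of 0.254). ENSHGLG00000009109 was not called in DMBA/TPA (log2 fold change -0.53, edgeR adjusted p = 0.0536). MSTRG.6025 was not called there either, at 74.2 and 75.5 CPM (log2 fold change -0.38, edgeR adjusted p = 0.113). Its DMBA/TPA and DMBA effects differed by 0.98 log2 units (edgeR adjusted p = 0.0438, standard error 0.231). That difference was no longer called with upper-quartile scaling (edgeR adjusted p = 0.058), with total counts alone, with the control columns summed, or when any 1 acetone library or any 1 DMBA/TPA library was left out (highest edgeR adjusted p 0.321).

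Called loci were occasionally neighbours in the numbering of the assembly. Of the 122 assembled loci that rose, 11 had a locus with the next or the previous number that also rose, and none of the 39 that fell had such a neighbour that fell. Among the 203 tested neighbours of rises 5.42% were called, beside 1.11% of all tested loci, and among the 58 tested neighbours of falls none was. The sources used here do not give what the order of the numbers stands for, and neighbours may be pieces of 1 transcript, so they are not independent. Of the 13 loci that rose by more than 8-fold, 3 had consecutive numbers, a grouping noticed after the values were seen.

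The set of called loci depended strongly on single libraries and on the fit. The direction of the 204 loci was the same in 202 with both control sets pooled and in 191 with the DMBA/TPA controls in place of the DMBA controls. Leaving out a library cannot turn it, since the groups did not overlap at these loci. Each of the 8 libraries was left out in turn, which leaves 1 library in its group, assumed to vary like those of the other groups. Between 7 and 1023 loci were then called. Of the 204 loci 27 stayed called in the same direction in at least 6 of these 8 fits, 25 higher and 2 lower, and 4 in all 8, 3 higher and 1 lower. For MSTRG.2456, ENSHGLG00000017641 and ENSHGLG00000009109 the call was kept in all 8. Another 155 were kept in at most 3 of the 8 fits. Leaving out the second DMBA library gave 1023 calls, 408 of them higher and 615 lower, and these included 187 of the 204 in the same direction.

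DESeq2, run on the same loci, called 607 higher and 339 lower, among them 203 of the 204. With only the 4 DMBA and control libraries in the fit 16 loci were called, all of them higher, of which 13 were among the 204, and with the control columns summed none was called in edgeR (1786 loci at an unadjusted p below 0.05). With total counts as the only scaling the median log2 fold change of all tested loci moved from 0.00 to -0.18, and 81 loci were called higher and 61 lower, so that the share of rises among the calls went from 75.5% to 57%. Of the 154 rises 81 and of the 50 falls 49 were still called.

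**Figure D5:**
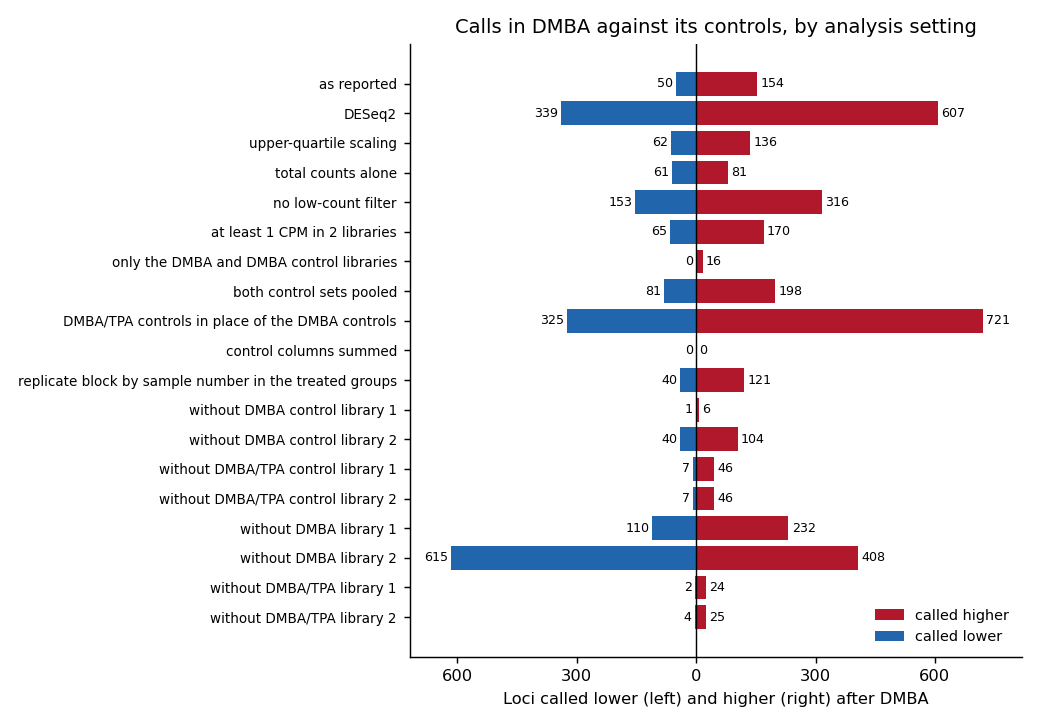
Bars show, for each setting of the analysis, the number of loci called higher (red, to the right) and lower (blue, to the left) after DMBA against its controls. The reported setting gives 154 and 50, and single settings range from 0 in both directions with the control columns summed to 721 higher against the DMBA/TPA controls and 615 lower without the second DMBA library.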

How the data were processed

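Whole-number read counts per gene ID were deposited by the authors as raw counts, per the labels. Libraries were strand-directional and depleted of ribosomal RNA, per the labels' protocols. Cutadapt, FastQC, Bowtie2 and TopHat2 are listed in the submitters' processing notes with neither role nor version. Not given in the sources used here are the build, the annotation, how reads were counted and whether by strand, so reads of overlapping, antisense or near-identical loci may be shared or split.

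Each count column was taken as 1 library. The pairs of the DMBA set differed beyond sampling noise (chi-square per degree of freedom 41.2 for controls and 137.4 for DMBA, over loci with at least 20 counts). Of 42221 rows in the RefSeq table of H.glaber_assembly_v1.0, 0 carried an Ensembl ID and 0 IDs matched, so the 14 gene lists, with 103 symbols, were not tested.

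The test was run with edgeR 4.0.16 under R 4.3.3, in these steps: filterByExpr (minimum count 10, minimum total 15), TMM scaling, and a robust quasi-likelihood fit over 4 groups with 4 residual degrees of freedom, where the biological coefficient of variation was 25.7%. P-values were Benjamini-Hochberg adjusted over all tested loci. Log2 CPM used a prior count of 2. DESeq2 1.42.0 was an alternative. The procedure was also run on simulated data. These were drawn with the fitted spread, so they cannot show whether that spread is technical. With no symbols, the first 2 loci by p in each direction are named, among called loci of at least 2 log2 CPM with groups that do not overlap. The comparisons, lists and rules were chosen with earlier results of these data known.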

Additional observations from a re-analysis of the deposited data

Results flagged for a closer look

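The DMBA and DMBA/TPA effects, each against its own controls, differed in edgeR's test of the difference for 3 of the 4 named loci. For MSTRG.2456 the DMBA/TPA effect was lower by 1.58 on the log2 scale, a difference of -1.58 (edgeR adjusted p = 0.0401), and both DMBA/TPA libraries lay below both DMBA libraries. For ENSHGLG00000009109 it was higher by 1.30 (edgeR adjusted p = 0.0238), and for MSTRG.6025 by 0.98 (edgeR adjusted p = 0.0438), both loci standing higher in each DMBA/TPA library than in either DMBA library. With other scalings, filters or libraries the call of the difference was lost in 7, 6 and 9 of 15 settings for these loci in turn, with the highest edgeR adjusted p at 0.308, 0.214 and 0.321, each with the control columns summed. Treatment and day of harvest changed together, so their parts cannot be told apart.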

How the results depend on the processing

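The count of called loci, 204, was 946 in DESeq2, 469 when low counts were not filtered, 16 with only the DMBA and DMBA control libraries in the fit, 1046 with the DMBA/TPA controls in place of the DMBA controls, 0 with the control columns summed (edgeR, 1786 loci at an unadjusted p below 0.05; DESeq2 was not run on that setting), and between 7 and 1023 with 1 library left out. It was 53 without either DMBA/TPA control library, 26 and 29 without the first and second DMBA/TPA library, and 342 without the first DMBA library. Upper-quartile scaling, total counts alone, a filter asking for 1 CPM in 2 libraries or more and pooled controls kept it within 1.5 times. The count of differences between the effects, 944, was 1811 with DESeq2, 48 with the control columns summed and between 62 and 2481 with 1 library left out, the lowest on leaving out DMBA/TPA 2 and the highest on leaving out DMBA 1; total counts alone moved its share of higher differences from 40.5% to 14.1%. Both DMBA libraries lay above both controls at 4177 loci, and at 2591 with total counts alone. Sample numbers are shared by DMBA and DMBA/TPA only and showed no pairing (correlation of deviations -0.000106); with the replicate block 161 loci were called for DMBA. The 4 named loci had the same direction against the DMBA/TPA controls and with both control sets pooled; leaving out a library cannot turn it, since their groups did not overlap. Of loci under 0 log2 CPM 0.444% were called, and whether depth limits these was not tested. The cause of these changes was not tested beyond what the number of libraries or loci in a setting fixes.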
